A study of Mus musculus with 12 samples.

Results

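The immunity-related GTPases described here are the products of 7 mouse genes: Irgm1, Irgm2, Igtp, Iigp1, Tgtp1, Tgtp2 and Ifi47. Their transcripts were taken from a table of 23636 gene symbols by symbol, and all 7 were found and passed the filter on low values. The set was chosen with earlier results of these data known, so it is not independent of the values. The cells were CT26, a mouse colon carcinoma line kept in culture, so 1 line stands for every group. The study asked what CX3CL1, the chemokine fractalkine, does to tumor cells that carry its receptor, without and with IFN-γ. The 12 libraries form 4 groups, each with 3 biological replicates: cells left untreated, cells given CX3CL1 at 2 µg/ml, cells given IFN-γ at a dose of 100 ng/ml, and cells given both, called CX3CL1+IFN-γ, all for 8 hours. All groups were CT26 cells with no engineered allele, and the doses and the time come from the study's legend and methods. The labels do not say what makes a replicate (a separate culture, passage or day), so p-values measure the spread between these libraries. The study's text also names TNF-α in one comparison, while the labels name only IFN-γ, so the agent is written as IFN-γ. That text has CX3CL1 follow the cytokines, while the legend gives a single time for both agents. Below, adding one agent to the other names a comparison of groups, not the order of dosing.

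Immunity-related GTPases are large GTP-binding proteins that interferons, above all IFN-γ, switch on in mouse cells. In cells infected with parasites such as Toxoplasma or with Chlamydia they gather on the vacuole that shelters the microbe and help to break it open. The family has regulatory members (Irgm1, Irgm2 and Igtp, also called Irgm3), which sit on the cell's own membranes and hold the others in their inactive state, and effector members (Iigp1, also called Irga6; Tgtp1 and Tgtp2, also called Irgb6; and Ifi47, also called Irgd), which load onto the vacuole. IFN-γ acts through its receptor and the JAK kinases on genes that carry GAS elements, and factors such as IRF1 act through the ISRE.

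Of the 7 genes, 6 lie on chromosome 11 in 2 groups (GENCODE vM21, GRCm38). The first group spans 235 kb and holds IRGM1 (chr11:48861968-48871683, minus strand), TGTP1 (chr11:48985327-48994172, minus), TGTP2 (chr11:49057194-49064206, minus) and IFI47 (chr11:49076587-49096974, plus). The second spans 23.2 kb and holds IGTP (chr11:58199556-58207591, plus) and IRGM2 (chr11:58199618-58222782, plus), whose annotated spans overlap. IIGP1 lies on another chromosome.

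The 250 bases before the RefSeq start (GRCm38.p6) were searched on both strands for GAS (TTCNNNGAA), which reads the same on both, and for the ISRE core (GAAA, then 2 bases of any kind, then GAAA), since these are the elements through which IFN-γ reaches its targets. Promoters of 6 of the 7 genes were searched. That of IIGP1 was left out of the search. The stretches that hold a match are shown from 5′ to 3′ on the gene's strand, with the matched letters in capitals, because 4 of them share the same arrangement.
IRGM1, chr11:48871428-48871457, minus strand: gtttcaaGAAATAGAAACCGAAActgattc
IRGM2, chr11:58214882-58214942, plus strand: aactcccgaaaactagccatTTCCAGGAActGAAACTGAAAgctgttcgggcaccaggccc
IGTP, chr11:58199491-58199551, plus strand: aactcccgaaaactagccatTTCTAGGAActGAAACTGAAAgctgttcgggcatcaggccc
TGTP1, chr11:48992294-48992354, minus strand: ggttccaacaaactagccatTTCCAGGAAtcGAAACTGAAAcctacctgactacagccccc
TGTP2, chr11:49064253-49064313, minus strand: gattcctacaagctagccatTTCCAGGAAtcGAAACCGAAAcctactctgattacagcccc

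IRGM2, IGTP, TGTP1 and TGTP2 each held a GAS and, 2 bases after it, an ISRE core. The GAS began 75 bases before the start of IRGM2, 45 before that of IGTP, 88 before that of TGTP1 and 81 before that of TGTP2. The windows of IRGM2 and IGTP were identical at 59 of 61 bases, and those of TGTP1 and TGTP2 at 47 of 61.

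IRGM1 held 2 overlapping ISRE cores and no GAS in these bases, and IFI47 held neither. The window of IRGM1 overlaps an annotated exon of that gene. Those of IRGM2 and TGTP1 lie between exons inside the annotated spans of their genes, and those of IGTP and TGTP2 lie before them. The windows of both TGTP1 and TGTP2 lie within the span of Olfr56. Over 32851 promoters of the same length, with the chromosome of IIGP1 left out, 7.02% held a GAS, 2.98% an ISRE core and 0.332% both. The κB consensus, searched by its name in the same bases, was in 3.90% of promoters and in 0 of the 6. A match describes letters and does not show that a factor binds there.

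Reads can be shared between some of these genes. The longest open reading frames of TGTP1 and TGTP2 were 99.7% identical, with 4 mismatches in 1248 bases, and 71.7% of the 150-base windows of the TGTP2 transcript also occurred in TGTP1. The values of these 2 genes are therefore uncertain one against the other, and their sum is given as well. IRGM1, IRGM2 and IGTP were 64.1 to 67.8% identical to each other and 50.5 to 54.3% to the effectors, which apart from the TGTP pair were 56.2 to 58.6% identical among themselves. IGTP shared 0.854% of its windows with IRGM2, and the longest coding transcripts of IRGM1, IRGM2, IIGP1 and IFI47, the only ones searched, shared 0 with any other gene. The windows that IGTP shared therefore lie in another transcript of IRGM2. TGTP1, TGTP2 and IFI47 also overlap the annotated span of Olfr56, and TGTP1 that of Gm12185.

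The authors' values are TPM, transcript abundances scaled by length and to a fixed total, so levels can be set beside each other between genes. They carry no read depth, which is therefore unknown. At least 1 TPM was reached by 10613 to 10824 symbols, and replicates correlated at 0.984 to 0.996 (Pearson, across genes, on log2(TPM + 1)). Markers of other cell types were low: 7 of 8 leukocyte markers (all but LYZ2, at most 1.86 TPM) and 4 of 4 endothelial markers stayed under 1 TPM in every library, with PTPRC at most 0.0441 TPM and CD3E listed at 0. The labelled carcinoma line had EPCAM listed at 0 in all 12 libraries and KRT8, KRT19 and CDH1 under 1 TPM, with KRT18 at 18.4 to 53.6 TPM, VIM at 1684 to 4831 TPM and 4 of 6 fibroblast-type markers at 1 TPM or more in every library. Of 5 colon differentiation markers, KRT20 (6.44 to 16.8 TPM) and CDH17 (1.65 to 13.2 TPM) were at 1 TPM or more in every library, and 3 stayed under 1 TPM. The summed level of the 8 carcinoma markers was 7656 to 11846 TPM without treatment, 6164 to 9212 with CX3CL1, 3607 to 6472 with IFN-γ and 2795 to 5525 with both. VIM and S100A4 (1086 to 6966 TPM), which mesenchymal cells also express, made up nearly all of it, and its part in the results was not tested. RPL26, a ribosomal protein gene, was also listed at 0 throughout, so a listed 0 can be a failed estimate. CX3CR1, the receptor of CX3CL1, was at 0 to 0.154 TPM. The study reported high CX3CR1 protein on CT26 cells by flow cytometry, a measure unlike this RNA level. Bulk libraries cannot tell fewer cells of a kind from less RNA per cell.

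Among the regulatory genes, IRGM1 was the most abundant member in all 4 groups, above every other member in each library. IRGM1 stood at 94.8, 46.2 and 71.5 TPM in untreated replicates 1, 2 and 3, at 177, 136 and 194 with CX3CL1, at 384, 341 and 541 with IFN-γ, and at 357, 350 and 510 with CX3CL1+IFN-γ. The untreated, CX3CL1 and IFN-γ groups did not overlap, while the last 2 groups covered the same range.

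IRGM2, which keeps effectors off host membranes, stood at 16.5, 10.2 and 15.4 TPM untreated, at 47.8, 45.5 and 70.2 with CX3CL1, at 122, 125 and 227 with IFN-γ, and at 131, 131 and 222 with both. IGTP, the remaining regulator, stood at 17.7, 8.96 and 11.8 TPM untreated, at 53.9, 35.2 and 62.3 with CX3CL1, at 166, 144 and 307 with IFN-γ, and at 153, 161 and 289 with both. Both genes lay below 18 TPM without treatment and passed 120 TPM in every library that received IFN-γ, and the CX3CL1 libraries sat between with no overlap.

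Among the effectors, IIGP1, TGTP1 and TGTP2 lay below every regulator in each untreated library, while IFI47 did not. IIGP1, a GTPase that coats the vacuole membrane, stood at 2.05, 0.610 and 1.53 TPM untreated, at 7.29, 5.16 and 8.96 with CX3CL1, at 37.7, 46.8 and 189 with IFN-γ, and at 55.4, 65.2 and 201 with both. Replicate 3 of the IFN-γ group and replicate 3 of the combined group were far above the other libraries of their groups. IFI47 stood at 21.01, 14.8 and 17.02 TPM untreated, at 55.1, 29.6 and 63.1 with CX3CL1, at 78.7, 90.7 and 183 with IFN-γ, and at 75.0, 101 and 192 with both. It was the effector with the highest level before treatment, and its CX3CL1 and IFN-γ libraries came nearest to each other without overlapping.

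TGTP1, first cloned as a T-cell GTPase, stood at 2.62, 0.820 and 1.89 TPM untreated, at 6.73, 3.53 and 6.74 with CX3CL1, at 54.4, 64.5 and 146 with IFN-γ, and at 57.7, 67.6 and 133 with both. TGTP2, its near-identical copy, stood at 6.76, 2.89 and 4.62 TPM untreated, at 15.8, 11.1 and 15.6 with CX3CL1, at 41.8, 51.9 and 106 with IFN-γ, and at 44.6, 53.1 and 96.3 with both. TGTP2 was the higher of the pair in every library without IFN-γ, and TGTP1 was the higher in every library with it.

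**Figure D1:**
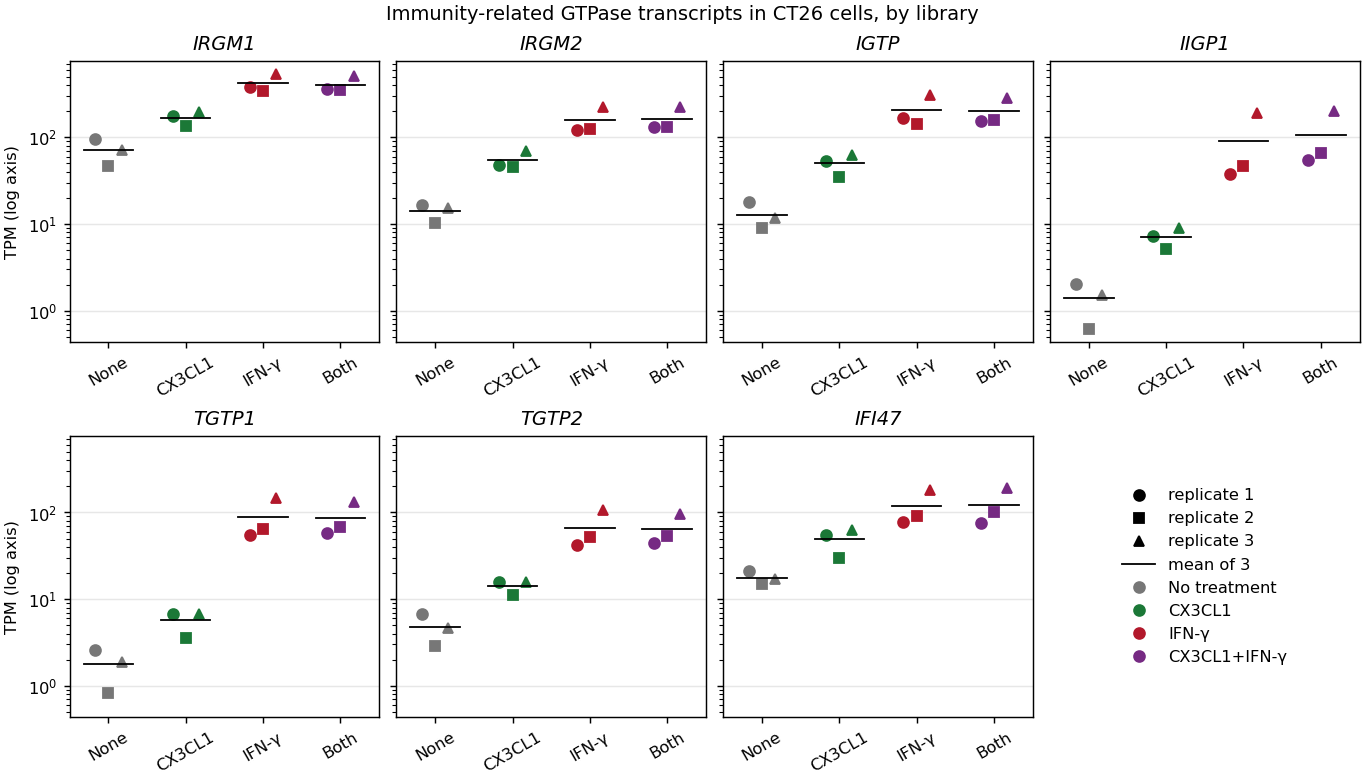
TPM (log axis) of each gene in the 12 CT26 libraries, by treatment; symbols mark the replicate number and the black line the mean of 3. Every gene sits lowest without treatment, higher with CX3CL1 and highest with IFN-γ, with no overlap between these 3 groups, and the IFN-γ and combined groups cover the same range.

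The order of the members differed between groups. Without treatment the means ran from IRGM1 (70.9 ± 24.3 TPM, SD, n = 3) through IFI47 (17.6 ± 3.15), IRGM2 (14.0 ± 3.39), IGTP (12.8 ± 4.47), TGTP2 (4.76 ± 1.94) and TGTP1 (1.78 ± 0.903) to IIGP1 (1.40 ± 0.731). The libraries of IFI47 and IRGM2, of IRGM2 and IGTP, and of TGTP1 and IIGP1 overlapped between libraries. Within a library, though, IFI47 was above IRGM2 and TGTP1 above IIGP1 in 3 of 3, and IRGM2 above IGTP in 2 of 3, so only the last pair had no steady order. With CX3CL1, IRGM1 (169 ± 29.8 TPM) stood apart from IRGM2 (54.5 ± 13.7), IGTP (50.5 ± 13.9) and IFI47 (49.3 ± 17.5), which overlapped and had no steady order within libraries. Below them came TGTP2 (14.2 ± 2.63), IIGP1 (7.14 ± 1.90) and TGTP1 (5.67 ± 1.85), with IIGP1 above TGTP1 in 3 of 3 libraries.

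With IFN-γ, only IRGM1 (422 ± 105 TPM) had no overlap between libraries with its neighbour. IGTP (206 ± 88.4 TPM), IRGM2 (158 ± 60.1), IFI47 (117 ± 56.9), IIGP1 (91.2 ± 84.9), TGTP1 (88.4 ± 50.3) and TGTP2 (66.7 ± 34.8) followed, and each overlapped the next. Within a library, IGTP was above IRGM2, IRGM2 above IFI47 and TGTP1 above TGTP2 in 3 of 3, while IFI47 was above IIGP1 in 2 and IIGP1 above TGTP1 in 1. The combined group had the same order of means and the same counts within libraries. IIGP1 moved from above 12.01% of the tested genes without treatment to above 83.3% with IFN-γ, and IRGM1 from above 79.2% to above 97.0%.

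Summed over the 7 genes, the level was 123 ± 38.5 TPM without treatment, 350 ± 78.3 with CX3CL1, 1149 ± 477 with IFN-γ and 1148 ± 430 with both (SD, n = 3). IRGM1 made up 57.1 ± 2.09% of the sum without treatment, 48.6 ± 2.50% with CX3CL1, 38.3 ± 5.88% with IFN-γ and 36.5 ± 5.02% with both. The 3 regulators together held 79.0 ± 1.42% of the sum untreated and 69.9 ± 6.37% with IFN-γ, and no library of the IFN-γ group was as high as an untreated one. In the CX3CL1 group they held 78.5 ± 2.53%, overlapping the untreated libraries. These shares were not tested.

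The make-up of the TGTP pair differed between groups. TGTP1 held 26.4 ± 3.74% of the summed TGTP1 and TGTP2 level without treatment and 28.1 ± 3.43% with CX3CL1, against 56.6 ± 1.22% with IFN-γ and 56.8 ± 1.07% with both. The libraries without IFN-γ reached at most 30.2% and those with it were at least 55.4%. How the authors' counting divided reads between the copies is not given in the sources used here, and its part in this shift was not tested.

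**Figure D2:**
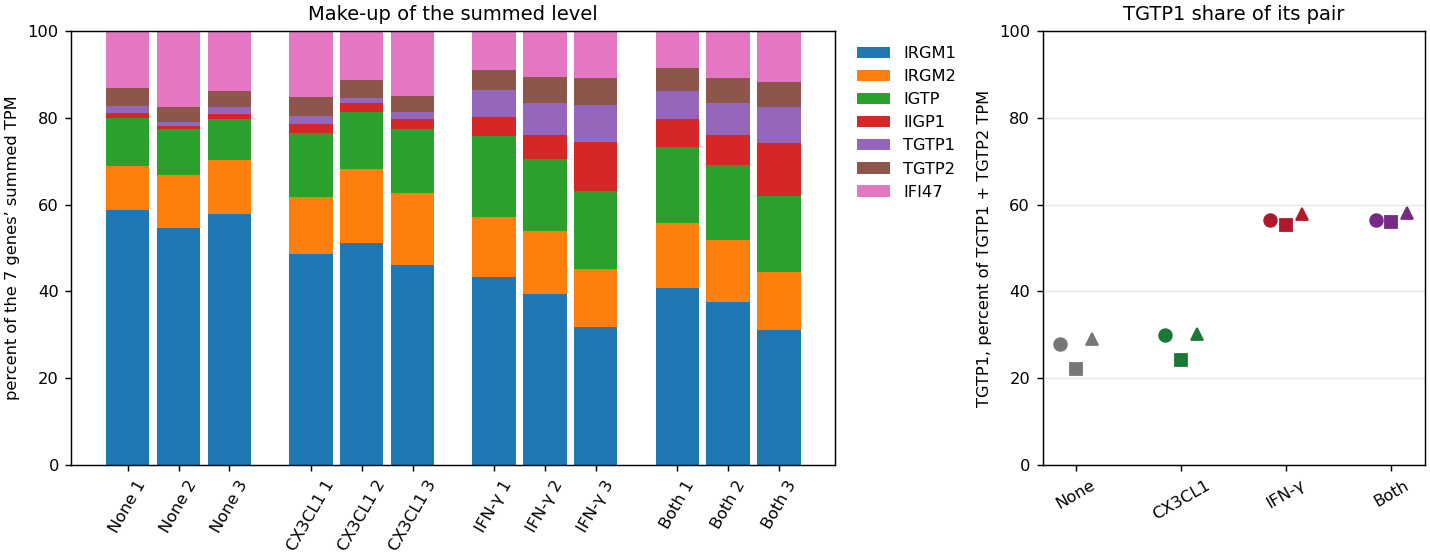
On the left is the percent of the 7 genes' summed TPM held by each gene in each library, and on the right TGTP1 as a percent of the TGTP1 and TGTP2 sum, with symbols for replicates 1 (circle), 2 (square) and 3 (triangle). IRGM1 holds 57.1% on average without treatment and 38.3% with IFN-γ, and the TGTP1 share lies at 22.1 to 30.2% without IFN-γ and 55.4 to 58.0% with it.

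IFN-γ alone against no treatment asks how strongly these cells switch the family on. All 7 genes rose (limma on log2(TPM + 1), adjusted p from 7.64e-06 to 0.000660), where 5.91% of the 11878 genes tested rose and 1.94% fell, 7.85% in all. The log2 fold changes ran from 2.58 to 4.93 with a median of 3.50, against a median of 0.03 over all genes tested. IIGP1 (4.93, SE 0.56) and TGTP1 (4.93, SE 0.40) changed most and were 9th and 10th among all genes tested by size of rise. IGTP rose by 3.87 (SE 0.33), TGTP2 by 3.50 (SE 0.36) and IRGM2 by 3.37 (SE 0.28).

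IRGM1 (2.59, SE 0.25) and IFI47 (2.58, SE 0.37), which had the highest levels before treatment, changed least. As ratios of mean TPM the rises were 65.2-fold for IIGP1, 49.7-fold for TGTP1, 16.0-fold for IGTP, 14.0-fold for TGTP2, 11.3-fold for IRGM2, 6.66-fold for IFI47 and 5.96-fold for IRGM1. The log2(TPM + 1) scale understates the change of the low genes. No member overlapped between the groups, as held for 20.6% of all genes tested in this direction. TGTP1 and TGTP2 summed to 1 gene rose by 4.32 (adjusted p = 1.31e-05). With 3 libraries a group, no exact permutation test (two-sided) could give a p below 0.1, so each call rests on the spread limma pools over genes.

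CX3CL1 alone against no treatment asks what the chemokine does to the same genes without added interferon. The 3 regulators rose: IGTP by 1.91 (SE 0.33, adjusted p = 0.00683), IRGM2 by 1.89 (SE 0.28, adjusted p = 0.00251) and IRGM1 by 1.28 (SE 0.25, adjusted p = 0.0154), all log2 fold changes from limma. Of all genes tested, 1.95% were called, 1.78% higher and 0.168% lower. The 4 effectors did not pass the threshold, with log2 fold changes of 1.78 for IIGP1 (SE 0.56, adjusted p = 0.211), 1.44 for TGTP2 (SE 0.36, adjusted p = 0.0693), 1.38 for IFI47 (SE 0.37, adjusted p = 0.112) and 1.28 for TGTP1 (SE 0.40, adjusted p = 0.199). Their 95% intervals all lay above 0, the widest from 0.56 to 3.00 for IIGP1. The summed TGTP pair, at 1.52, was not called either (adjusted p = 0.0805). With the replicate number as a block in the limma fit, all 7 genes passed, where 3.83% of all genes tested did. The effectors then had adjusted p from 0.0187 (TGTP2) to 0.0350 (TGTP1). Same-numbered libraries of these groups paired unevenly, as given below.

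In TPM, the CX3CL1 libraries were above the untreated ones with no overlap for all 7 genes, as held for 5.5% of genes tested in this direction. The ratios of mean TPM were 5.10 for IIGP1, 3.94 for IGTP, 3.89 for IRGM2, 3.19 for TGTP1, 2.98 for TGTP2, 2.80 for IFI47 and 2.38 for IRGM1. Within replicate numbers every one of the 21 ratios was above 1, from 1.86 (IRGM1, replicate 1) to 8.46 (IIGP1, replicate 2), and 11.5% of all genes tested were higher in 3 of 3 numbers. The call of IRGM1 rests on single libraries: without CX3CL1 replicate 1 or 3, or without untreated replicate 2 or 3, its adjusted p was 0.0663, 0.0825, 0.0687 or 0.0612. TGTP2 was called without untreated replicate 1 (adjusted p = 0.0484) and IFI47 without CX3CL1 replicate 2 (adjusted p = 0.0475). This comparison and the previous one share the 3 untreated libraries.

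**Figure D3:**
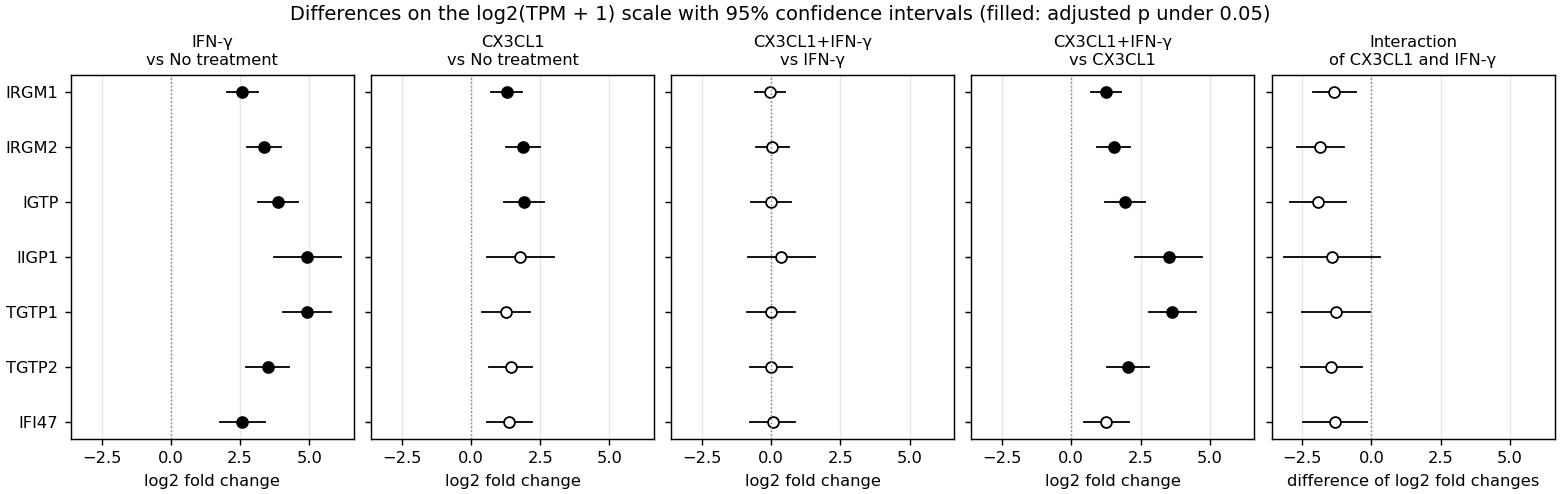
Differences of the 7 genes on the log2(TPM + 1) scale from the limma fit for 4 comparisons and the interaction, with 95% confidence intervals; filled points have an adjusted p under 0.05. All 7 points are filled for IFN-γ and 3 for CX3CL1. When CX3CL1 was added to IFN-γ 0 are filled, and 6 when IFN-γ was added to CX3CL1. For the interaction 0 are filled and all 7 lie below 0. Of all genes tested, 7.85%, 1.95%, 0.362%, 4.7% and 0% were called, in that order.

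Adding CX3CL1 to IFN-γ was compared with IFN-γ alone. None of the 7 genes was called by limma, 0 had an unadjusted p under 0.05 and 0 were called with the replicate number as a block, where 0.362% of all genes tested were called (0.345% higher and 0.0168% lower), 4.35% had an unadjusted p under 0.05 and 0.8% were called with the block. The groups overlapped for all 7, while 16.3% of all genes tested had no overlap. Log2 fold changes were −0.05 for IRGM1, 0.04 for IRGM2, −0.02 for IGTP, 0.37 for IIGP1, 0.01 for TGTP1, −0.01 for TGTP2 and 0.05 for IFI47. The sign of TGTP1 turned under quantile normalization (−0.022). The 95% intervals allow a change of −0.60 to 0.49 for IRGM1 and −0.56 to 0.65 for IRGM2, and up to −0.85 to 1.59 for IIGP1, so a change of 1 on the log2 scale in IIGP1 would not be detectable with this spread.

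Within replicate numbers, 13 of the 21 ratios of CX3CL1+IFN-γ to IFN-γ were above 1, and they ran from 0.905 (TGTP2, replicate 3) to 1.47 (IIGP1, replicate 1). IIGP1 was higher in all 3 numbers, at ratios of 1.47, 1.39 and 1.06, as held for 25% of the genes tested. Its log2 fold change was 0.37 (SE 0.56, adjusted p = 0.975), and it turned to −0.21 without CX3CL1+IFN-γ replicate 3.

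**Figure D4:**
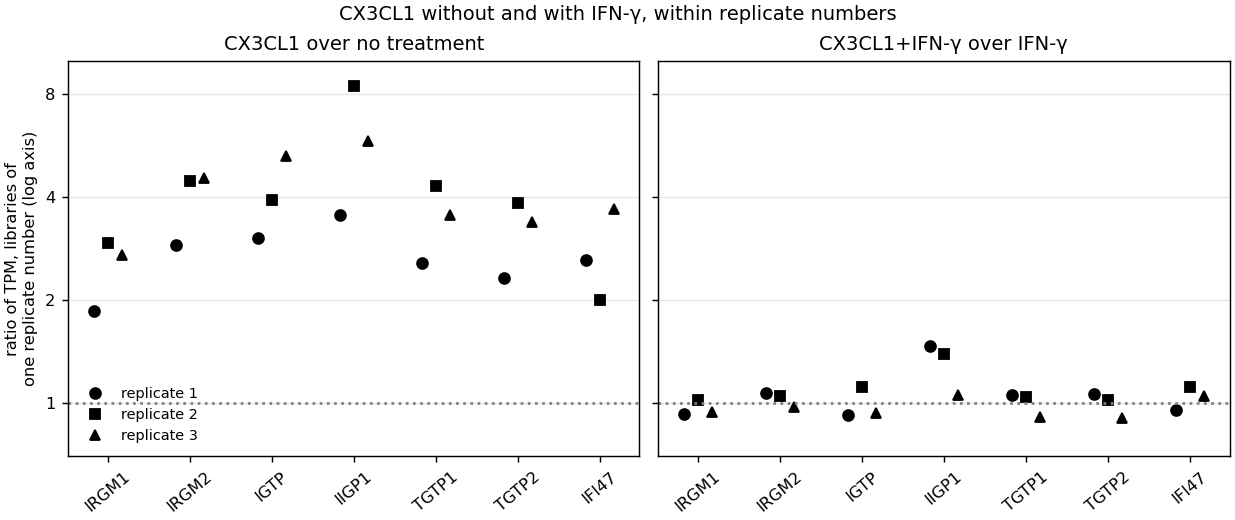
Ratio of TPM between libraries that carry one replicate number (log axis), for CX3CL1 over no treatment (left) and CX3CL1+IFN-γ over IFN-γ (right), by gene. On the left all 21 ratios lie between 1.86 and 8.46, and on the right the 21 ratios lie between 0.905 and 1.47.

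Adding IFN-γ to CX3CL1 was the other arm of the design. Here 6 of the 7 genes rose in the limma fit, where 4.7% of all genes tested were called, 3.76% higher and 0.935% lower. All 7 had no overlap, as held for 14% of genes tested in this direction. The log2 fold changes were 3.65 for TGTP1 (SE 0.40), 3.51 for IIGP1 (SE 0.56), 2.05 for TGTP2 (SE 0.36), 1.95 for IGTP (SE 0.33), 1.53 for IRGM2 (SE 0.28) and 1.25 for IRGM1 (SE 0.25), with adjusted p from 0.000292 to 0.0120. IFI47 had a change of 1.26 (SE 0.37) that did not pass (adjusted p = 0.0835), and passed with the replicate block (adjusted p = 0.0164), under which 11.5% of all genes tested were called and 8.71% rose. Ratios of mean TPM ran from 2.40 for IRGM1 to 15.2 for TGTP1. The call of IRGM1 was lost without CX3CL1+IFN-γ replicate 3 (adjusted p = 0.0676). These values share the combined libraries with the comparison against IFN-γ and the CX3CL1 libraries with that against no treatment.

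The interaction, the CX3CL1 effect with IFN-γ minus the effect without it, was below 0 for all 7 genes, from −1.92 for IGTP (SE 0.47) to −1.27 for TGTP1 (SE 0.56). None passed in the limma fit (lowest adjusted p = 0.202, for IRGM2, at −1.84, SE 0.39), and 0 of all 11878 genes tested did. With the replicate block 3 passed, IRGM2 (adjusted p = 0.0110), IGTP (0.0363) and IRGM1 (0.0468), where 0.438% of all genes tested passed. Same-numbered libraries of the untreated and CX3CL1 groups pair less evenly than those of the other groups, at correlations of 0.00472 to 0.387. At an unadjusted p under 0.05, 6 of the 7 were lower, all but IIGP1 (−1.42, SE 0.80, unadjusted p = 0.0990), beside 1.75% of all genes tested lower and 2.3% in either direction. On this scale the separate effects of the 2 agents summed to more than the combined effect in each gene, by a difference that passed the adjusted test for 3 genes with the block and for 0 without it.

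The same holds in TPM for 6 of the 7 genes. The untreated mean plus the separate gains came to 520 TPM for IRGM1, where 406 was measured with both agents, to 243 against 201 for IGTP, and to 198 against 161 for IRGM2. For IFI47 it was 149 against 123, for TGTP2 76.1 against 64.6 and for TGTP1 92.3 against 86.2. IIGP1 alone had a higher measured mean (107 TPM) than the sum (97.0 TPM). The gain from CX3CL1 was 31.7% of that from IFN-γ for IFI47, 28.2% for IRGM2, 27.9% for IRGM1, 19.5% for IGTP, 15.2% for TGTP2, 6.39% for IIGP1 and 4.49% for TGTP1. These sums of means carry no test, and the gap was smaller than the SD of either IFN-γ-treated group for every gene but IRGM1.

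Libraries of a group ranked alike across the family, and the replicate number that was highest differed between groups. Replicate 3 was the highest library for 7 of 7 genes in the IFN-γ group and for 7 of 7 in the combined group, where it was the highest for 21.1% and 19.6% of all genes tested and for 56.4% and 55.5% of the 695 other genes called higher with IFN-γ. In the IFN-γ group its TPM was 4.48 times the mean of replicates 1 and 2 for IIGP1, 2.46 times for TGTP1, 2.27 times for TGTP2, 2.16 times for IFI47, 1.98 times for IGTP, 1.84 times for IRGM2 and 1.49 times for IRGM1. In the CX3CL1 group replicate 3 was the highest for 6 of 7, against 18.3% of all genes tested. In the untreated group it was the highest for 0 of 7, against 18.1%. There replicate 1 was the highest library for all 7 genes. Replicate 2 was the lowest for all 7 in both the untreated and the CX3CL1 group. How many of all genes tested share that order was not counted. Of the 11 guanylate-binding proteins replicate 3 was the highest for 11 with IFN-γ, 10 with both, 8 with CX3CL1 and 0 untreated. Without IFN-γ replicate 3 the log2 fold change of IIGP1 against no treatment was 4.21 and was called, as were all 7 genes.

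Other genes that work with the family were counted beside it. Of all genes tested, 7.85% were called with IFN-γ (5.91% higher) and 1.95% with CX3CL1 (1.78% higher). The share was 0.362% when CX3CL1 was added to IFN-γ, and 0 were called for the interaction. Of 10 further immunity-related GTPase symbols that the files list, 9 were tested, of which 6 rose with IFN-γ, 1 with CX3CL1 and 0 when CX3CL1 was added to IFN-γ, with median log2 fold changes of 2.38, 0.27 and 0.07. GM12250, which encodes the effector Irgb10, was at 0.171 to 0.462 TPM untreated, 0.244 to 0.730 with CX3CL1 and 14.2 to 93.7 with IFN-γ (log2 fold change 4.64 with IFN-γ, SE 0.64, adjusted p = 0.000437, and 0.24 with CX3CL1, SE 0.64, adjusted p = 1.000). GM4951, the 1 called with CX3CL1 and named after its value was seen, changed by 1.77 (SE 0.32, adjusted p = 0.0104). IRGQ, a relative outside the interferon-induced set, had a log2 fold change of 0.05 with IFN-γ (adjusted p = 0.894), and IRGC1 was at 0 to 0.0866 TPM and not tested. GM5431, GM4841 and F830016B08RIK, 3 of the 9, had an untreated mean under the filter of 0.2 TPM and entered the test through the treated groups. With the replicate block 7 of the 9 passed with IFN-γ, where 16.2% of all genes tested passed and 11.4% rose. The added one had a log2 fold change of 0.90 (adjusted p = 0.0623, and 0.0176 with the block). For the interaction 0 of the 9 were called, with a median of −0.18.

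The guanylate-binding proteins, larger interferon-induced GTPases that join the same vacuoles, were counted too. All 11 rose with IFN-γ (median 4.10), and 6 rose with CX3CL1 (median 1.71). When CX3CL1 was added to IFN-γ 0 were called (median 0.27), and 11 rose when IFN-γ was added to CX3CL1 (median 2.71). Of all genes tested, 5.91% rose with IFN-γ, 1.78% with CX3CL1 and 3.76% when IFN-γ was added to CX3CL1. For CX3CL1 added to IFN-γ, 0.362% were called. GBP2 stood at 10.01 ± 4.86 TPM untreated, 72.8 ± 14.9 with CX3CL1, 479 ± 225 with IFN-γ and 666 ± 241 with both. GBP2B changed most with IFN-γ (log2 5.46) and GBP8 least (1.46). For the interaction 0 of the 11 were called and all 11 were below 0 (median −1.22). With the replicate block 2 of them passed there, where 0.438% of all genes tested did. With CX3CL1 alone 8 passed with the block, where 3.83% of all genes tested did. GBP8 and GBP11 also had untreated means under the filter.

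The ATG8 conjugation genes, whose products place the regulatory and effector GTPases correctly, gave 0 calls of 13 tested in each comparison. Medians were 0.05 with IFN-γ and 0.11 with CX3CL1. Of all genes tested, 7.85% were called with IFN-γ, 1.95% with CX3CL1 and 4.7% when IFN-γ was added to CX3CL1. For CX3CL1 added to IFN-γ, 0.362% were called. With 13 genes, 0 calls is not far from these shares. ATG7 (0.57, adjusted p = 0.0753) and ATG16L1 (0.33, adjusted p = 0.0614) with IFN-γ passed only with the replicate block (adjusted p = 0.00377 and 0.0196), as did ATG7 when IFN-γ was added to CX3CL1 (0.54, adjusted p = 0.00704 with the block). With the block 16.2% of all genes tested passed with IFN-γ, 3.83% with CX3CL1 and 11.5% when IFN-γ was added to CX3CL1. ATG3 had a log2 fold change of −0.13 with IFN-γ and MAP1LC3A of −0.20, neither called. Of 6 tested genes for ubiquitin and its adaptors on the vacuole, TRIM21, a ubiquitin ligase, rose with IFN-γ (2.19, SE 0.24, adjusted p = 5.73e-05) and with CX3CL1 (1.21, SE 0.24, adjusted p = 0.0154). SQSTM1, the adaptor p62, had a log2 fold change of 0.81 with IFN-γ (adjusted p = 0.0618), which passed with the replicate block (adjusted p = 0.000185), as did its 0.54 when IFN-γ was added to CX3CL1 (0.00423). Its 0.56 with CX3CL1 (adjusted p = 0.571) also passed with the block (0.00665). UBE2N, a ubiquitin-conjugating enzyme, had a log2 fold change of −0.24 with IFN-γ and was not called. OPTN was listed at 0 in all libraries.

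Of 14 tested genes of IFN-γ signalling, 7 rose with IFN-γ and 3 with CX3CL1. When CX3CL1 was added to IFN-γ 0 rose, and 6 rose when IFN-γ was added to CX3CL1. Among all genes tested, 5.91% rose with IFN-γ and 1.78% with CX3CL1. The shares were 0.345% for CX3CL1 added to IFN-γ and 3.76% for IFN-γ added to CX3CL1. With the replicate block, IFNGR2 also passed with IFN-γ (0.49, adjusted p = 0.0831, and 0.00546 with the block). It passed likewise with CX3CL1 (0.58, adjusted p = 0.116, and 0.00559 with the block). IRF9 (0.38) and SOCS1 (0.60) did so when IFN-γ was added to CX3CL1 (adjusted p = 0.0732 and 0.232, and 0.0225 and 0.00939 with the block). All 3 genes were named after their values were seen. For the interaction 0 of the 14 were called and 3 passed with the block, where 0.438% of all genes tested did. The medians of the first 3 comparisons were 0.65, 0.31 and 0.07. IFNGR1, the ligand-binding chain of the receptor, had the lowest change with IFN-γ (−0.14, SE 0.10, adjusted p = 0.427). IFNG itself was at 0 to 0.0647 TPM in the 12 libraries.

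**Figure D5:**
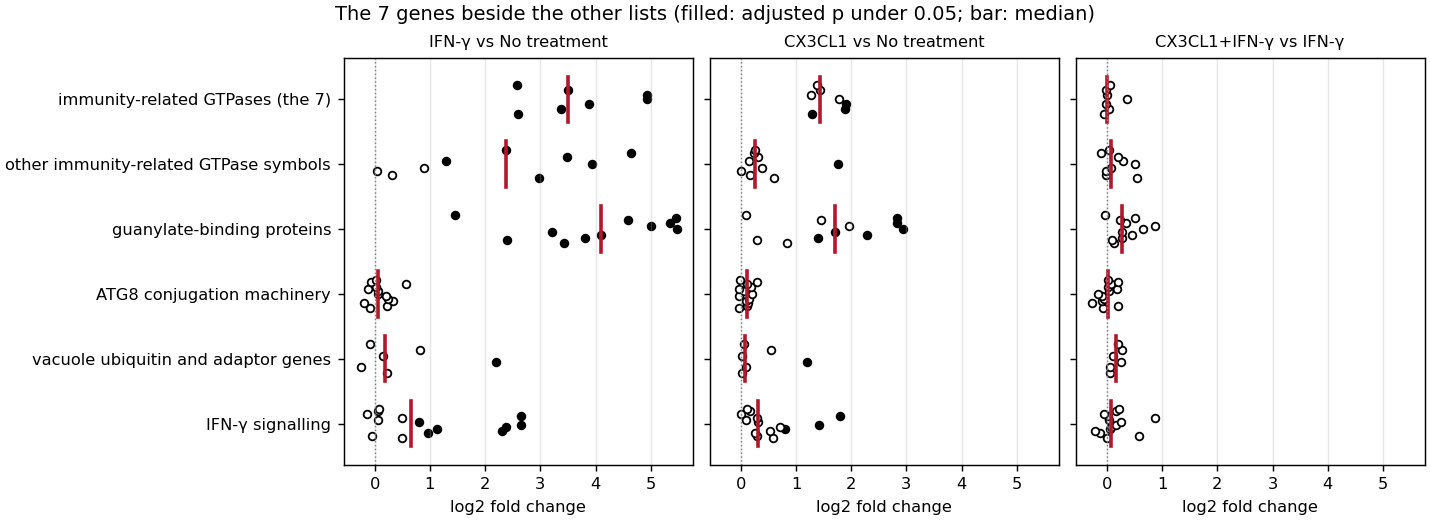
Log2 fold changes of the 7 genes and of 5 other gene lists in 3 comparisons; each point is a gene, filled at an adjusted p under 0.05, and the red bar is the list's median. With IFN-γ the medians are 3.50 for the 7 genes and 4.10 for the guanylate-binding proteins. When CX3CL1 was added to IFN-γ no list has a called gene, where 0.362% of all genes tested were called.

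The genes whose pattern was most like the family's were found among 10747 tested genes averaging 1 TPM or more, by the root mean square distance between the log2 changes of the 3 treated groups from no treatment and the median of the 7 members (1.44 with CX3CL1, 3.50 with IFN-γ, 3.49 with both). The nearest were TAPBP (distance 0.124), PHF11A (0.129), GBP9 (0.229), PSMB8 (0.262), IRF7 (0.292) and CCL5 (0.303). TAPBP is the peptide-loading protein tapasin, PSMB8 an immunoproteasome subunit, IRF7 an interferon regulatory factor and CCL5 a chemokine. TAPBP changed by 1.41 with CX3CL1 (SE 0.18, adjusted p = 0.00106), by 3.35 with IFN-γ (SE 0.18, adjusted p = 1.15e-06) and had a log2 fold change of −0.02 when CX3CL1 was added to IFN-γ (SE 0.18, adjusted p = 0.995). Member by member, the nearest gene was OAS1A for IRGM1 (0.0572), GBP9 for IRGM2 (0.144), IRF7 for IGTP (0.225), GBP5 for IIGP1 (0.353), PSMB9 for TGTP1 (0.160), TAPBP for TGTP2 (0.124) and IL15 for IFI47 (0.0623). These distances come from 4 group means of the same 12 libraries and carry no test.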

How the data were processed

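RNA from CT26 cells was sequenced in 12 libraries, 4 groups of 3. Libraries came from a strand-specific mRNA kit. The authors aligned the reads to mm10 with STAR 2.7.3a and tested gene counts with DESeq2 1.22.1, and the deposited values are TPM. How TPM were made, the gene annotation and the treatment of reads shared by similar genes are not given in the sources used here. TPM keep no depth, so precision is the spread between replicates. Conditions came from the labels.

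Tests were computed in R 4.3.3 with limma 3.58.1 (lmFit, contrasts.fit, eBayes) on log2(TPM + 1), with the prior variance following the mean level, over 11878 genes averaging 0.2 TPM or more, with all 12 libraries in one fit, no block, and Benjamini-Hochberg adjustment over all genes at 0.05. TPM replaced the counts that the authors' test needs. The fit was tested on simulated data with independent libraries, for IFN-γ against no treatment only. It recovered 185 of 200 genes changed by 1 on the log2 scale and 199 of 200 changed by 2. Each run had 11 false calls. The simulation held no pairing of replicate numbers, and the other comparisons were not scored. Named were the 7 members, up to 3 genes of each list (the first listed, and the largest and smallest change with IFN-γ), and the genes most alike in pattern. One gene that this rule names is not reported here. The members and lists were chosen with earlier results of these data known. Positions came from GENCODE vM21, promoters from RefSeq (GRCm38.p6), and identities from global alignment with Biopython 1.88.

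Deviations of same-numbered libraries from their group means correlated across genes at 0.220 to 0.460 for no treatment and IFN-γ, at 0.630 to 0.649 for IFN-γ and CX3CL1+IFN-γ, and at 0.351 to 0.428 for CX3CL1 and CX3CL1+IFN-γ, so the numbers pair these groups. For no treatment and CX3CL1 the correlations were 0.00472 to 0.387, so the pairing there was uneven. The labels do not say what a number shares. Alternatives were the replicate block, leaving out each library, summing TGTP1 and TGTP2, no variance trend, fitting only the libraries compared, quantile normalization or median-ratio scaling, a filter at 1 TPM or none, and 0.1 as the pseudocount.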

Additional observations from a re-analysis of the deposited data

How the results depend on the processing

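With IFN-γ alone, all members tested were called higher under every alternative. For CX3CL1 against no treatment, the 3 calls became 6 with only the libraries compared, where 209 of all 11878 genes tested were called. With the replicate block they became 7 (where 3.83% of all genes tested were called). They became 2 with no filter, where 188 of 16889 genes tested were called and IRGM1 was not (adjusted p = 0.0658). A pseudocount of 0.1 gave 4, with TGTP2 called (adjusted p = 0.0425), where 259 of 11878 genes tested were called. For these groups same-numbered pairs correlated at 0.387, 0.0047 and 0.301 (replicates 1, 2 and 3). The pairing behind the block is therefore uneven there, and its calls are given beside those of the fit without it. Leaving out one library gave 2 to 4 calls, where 152 to 268 of all 11878 genes tested were called. IRGM2 and IGTP were called in all 6 of these fits and IRGM1 in 2. For the interaction, 0 calls became 3 with the replicate block (given above). The block changed no other call of a member besides that of IFI47, also given above. Leaving out a library gave 5 to 6 calls for CX3CL1+IFN-γ against CX3CL1, where 270 to 668 of all genes tested were called. It gave 7, 0 and 0 for IFN-γ alone, CX3CL1 added to IFN-γ and the interaction. Over all genes tested these fits called 530 to 764, 16 to 54 and 0 to 11.

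When CX3CL1 was added to IFN-γ, the sign of TGTP1 turned under quantile normalization (−0.022). Signs also turned when single libraries were left out, with log2 fold changes from −0.23 to 0.14 for IRGM1, −0.21 to 0.34 for IRGM2, −0.31 to 0.31 for IGTP, −0.21 to 1.08 for IIGP1, −0.35 to 0.43 for TGTP1, −0.33 to 0.38 for TGTP2 and −0.32 to 0.42 for IFI47, and none was called. The cause was not tested. Over all genes, the replicate block raised the calls from 932 to 1929 with IFN-γ, 232 to 455 with CX3CL1, 43 to 95 for CX3CL1 added to IFN-γ, 558 to 1369 for IFN-γ added to CX3CL1 and 0 to 52 for the interaction. Fitting only the libraries compared raised them from 932 to 1291 with IFN-γ and lowered them from 232 to 209 with CX3CL1. It lowered them from 43 to 20 for CX3CL1 added to IFN-γ and from 558 to 344 for IFN-γ added to CX3CL1. With no filter the count for CX3CL1 added to IFN-γ was 28. Median-ratio scaling and quantile normalization lowered the share of calls that were higher with IFN-γ from 75.3% to 64.6% and 50.9%, and for IFN-γ added to CX3CL1 from 80.1% to 65.6% and 60.5%. The direction of each member was the same under both, apart from TGTP1 as above.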
